A study of Mus musculus with 1392 samples.

Results

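The Myc domain is a long stretch of mouse chromosome 15 that holds the gene Myc, its neighbour Pvt1 and a distant cluster of blood enhancers. Its members are the peaks of open chromatin that overlap a fixed interval of 1920 kb (mouse build mm9) reaching from just before Myc to just beyond the cluster. This holds for 59 of all 115295 peaks, from chr15:61806620-61806831 to chr15:63612607-63612861. Myc encodes a transcription factor that drives cell growth, metabolism and division, and blood stem cells keep it at a low level that rises as they leave dormancy. Pvt1 is a gene for a long non-coding RNA with enhancers inside it in some cell types, and beyond it lies a region without protein-coding genes. The far end holds the blood enhancer cluster, a group of separate enhancer modules that contact the Myc promoter over the intervening DNA and are needed for Myc expression in blood stem and progenitor cells.

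Open chromatin was read cell by cell with ATAC-seq, which uses a transposase to tag accessible DNA, in a plate format on bone marrow cells of C57BL/6 mice. Both ages were sorted by the same markers, as lineage-negative, Sca-1-positive and Kit-positive cells with CD150 and Vwf and without CD48 and CD34, which are haematopoietic stem cells that carry the platelet-lineage marker Vwf. The study asked whether the makeup of these stem cells changes with age, and the labels give age only as young or old. The 1392 cells came in 5 numbered sets, young 1 with 181 cells, young 2 with 151, old 1 with 306, old 2 with 380 and old 3 with the rest. The labels leave unsaid what a set is (animal, pool or plate), so a p-value here reflects only how far these sets spread, and that spread may be technical. The edgeR test takes this spread partly from the peak itself and partly from all tested peaks. No set mixes the ages, so age and set preparation cannot be told apart. The sum of counts per set ran from 1159957 to 4181770 and the median count per cell from 3604.5 to 11807, with the deepest cells in young 2 and the shallowest in old 3. The table names peaks by position only, so the sorted cell type was not checked against marker genes.

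Peaks are named by the distance in kb from the start of Myc to their centre. Values of single sets are listed in the order of the set numbers, with the 2 young sets first. The domain was divided by position into a Myc window with 5 peaks, a Pvt1 window with 15, a gap window with 17 and an enhancer cluster window with 22. The last stretch, beyond the enhancer cluster window, held 0. The domain had 3.07 peaks per 100 kb, fewer than chromosome 15 with 4.58 and all chromosomes with 4.47. Peaks were packed at both ends of the domain. There were 8.33 per 100 kb in the Myc window, 5.77 in the Pvt1 window and 6.29 in the enhancer cluster window, against 1.42 in the gap window. The longest stretch without a peak, 342 kb, ran from the peak at +407 kb to the one at +750 kb.

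Most of the signal came from a few elements. The 59 peaks held 5636 counts over all sets. The enhancer cluster window took 48.7% of them, the Myc window 21.8%, the Pvt1 window 19.2% and the gap window 10.3%. A single peak in the enhancer cluster at +1663 kb held 19.9% of the domain's counts, and the peak at the start of Myc held 14.4%. Values per set are given as CPM, counts scaled to a common depth with composition factors. Averaged over the 5 sets, 13 peaks lay above 10 CPM and 36 below 5 CPM.

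**Figure D1:**
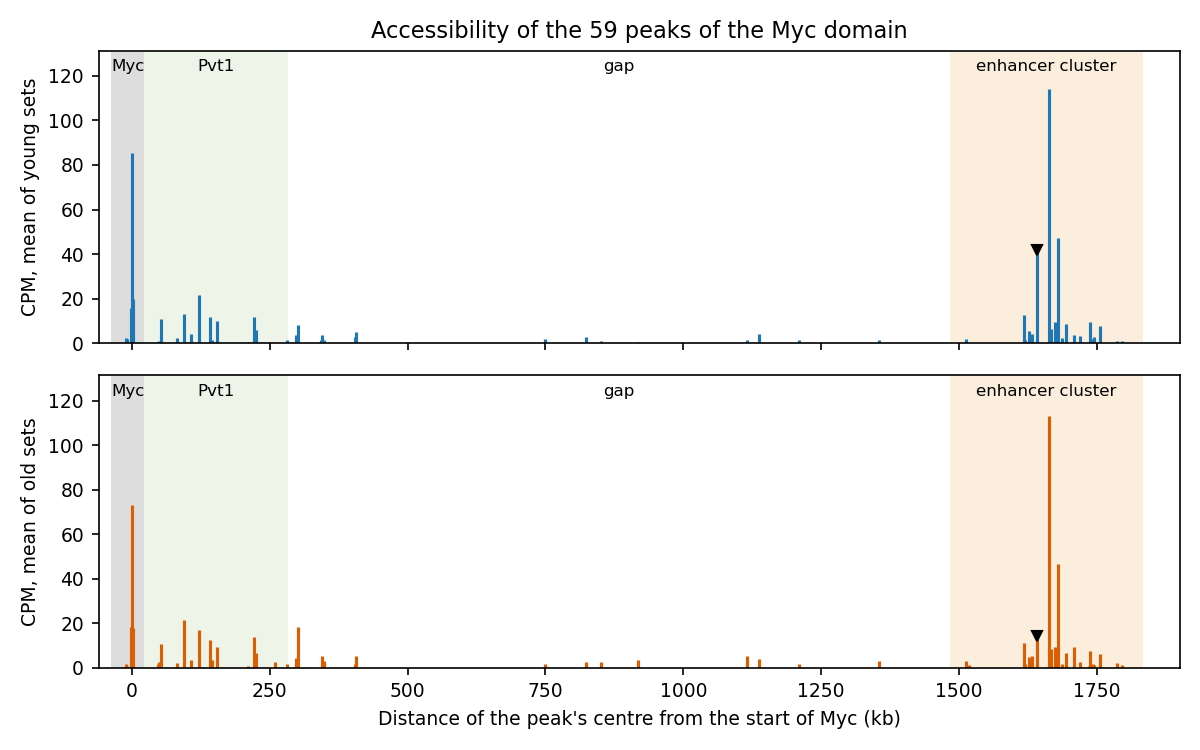
Mean accessibility of each of the 59 peaks in young sets (upper panel) and old sets (lower panel), as CPM not divided by peak width, against distance from the start of Myc in kb; shading marks the windows and the triangle marks the peak at +1641 kb. Tall bars stand at the start of Myc and at +1663 and +1680 kb in both panels, and the bar under the triangle is lower in old sets.

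Of the 59 peaks, 25 had enough counts for the test of old against young. The other 34 held 6 to 45 counts each, with a median of 18 and 12.5% of the domain's counts together. They were narrower, with a median width of 283.5 bp against 715 bp for the tested peaks, and no statement on age was made for them singly. Among the tested peaks 1 was called, at +1641 kb, and it was lower in old sets (edgeR's quasi-likelihood test of summed counts, with a Benjamini-Hochberg adjusted p under 0.05). Over the genome the same test called 3.17% of 58167 tested peaks, 1.78% higher in young and 1.39% higher in old. The rest of chromosome 15 had 2.84% called. A single call among 25 peaks is a share of 4%, near this background. Over the 25 peaks, 13 fold changes were above 0 and 12 below, and the median log2 fold change of old over young was 0.014, against -0.0089 over all tested peaks. Young and old sets were fully separated at 4 of the 25 peaks, 2 higher and 2 lower in old, while 33.2% of all tested peaks had no overlap between the ages. The 95% interval of the fold change lay within 1 log2 unit of 0 at 12 of the 25. At the others it reached beyond 1 log2 unit on at least 1 side. Before adjustment, 3 of the 25 had an edgeR p under 0.05, and 15.4% of all tested peaks did.

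**Figure D2:**
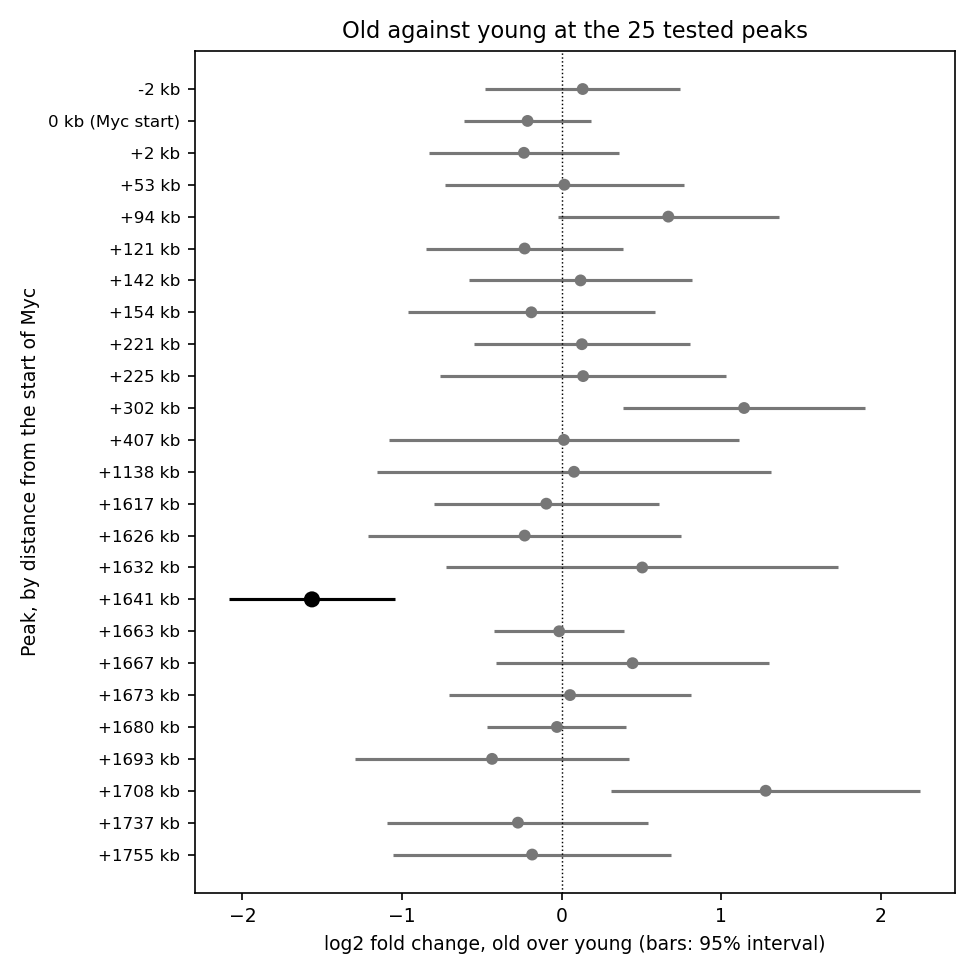
Log2 fold change of old over young for the 25 tested peaks, ordered by distance from the start of Myc; points are fitted values, bars their 95% intervals, and the black point is the called peak. The peak at +1641 kb lies at -1.56 with its interval below 0, and the intervals of +302 and +1708 kb lie above 0 before adjustment over the genome. Unadjusted edgeR p was under 0.05 at 3 of the 25 peaks, against 15.4% of all tested peaks.

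The peak over the start of Myc, chr15:61815905-61817476, is 1571 bp wide and covers the position at which the gene begins. The young sets read 85.7 and 84.8 CPM here and the old sets read 76.3, 75.5 and 67.7 CPM. Both young sets were above all 3 old sets, by a small margin. Young sets averaged 85.2 ± 0.612 CPM (SD, n = 2) and old sets 73.2 ± 4.75 (SD, n = 3). The fitted log2 fold change, -0.21 (95% interval -0.61 to 0.19), did not pass the test (edgeR adjusted p = 0.667). By CPM it ranked 743 of the 115295 peaks. A count was seen in 31.0% of all cells. That share moved with depth, from 20.1% in old 3 to 52.3% in young 2. With every cell thinned to 1906 counts the young sets gave 9.60% and 13.7%, the old sets 8.56%, 12.0% and 9.41%, and the ages overlapped.

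A pair of smaller peaks flank it at -2 kb and +2 kb. The one at -2 kb, just upstream, read 11.0 and 20.6 CPM for young and 21.0, 18.2 and 15.3 for old sets. Just inside the gene, the peak at +2 kb had 15.9 and 23.8 CPM in young against 14.2, 20.8 and 19.3 in old. At both the ages overlapped and the fitted changes, 0.13 and -0.24 on the log2 scale, did not pass the test (edgeR adjusted p = 0.891 and 0.768). Of the other 2 peaks in the Myc window, at -10 and -9 kb, neither was tested.

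In the Pvt1 window 7 of 15 peaks were tested and none was called, with 6 peaks at an edgeR adjusted p of 0.784 or above. The widest lies at +53 kb (chr15:61869193-61870440) and averaged 11.0 ± 4.15 CPM (SD, n = 2) for young against 10.6 ± 1.78 (SD, n = 3) for old sets. The strongest was at +121 kb (chr15:61937914-61938629), with 27.9 and 15.7 CPM in young and 18.4, 20.8 and 12.0 in old. The peak at +94 kb (chr15:61910700-61911553) had 14.9 and 11.2 CPM in young and 13.6, 18.2 and 31.9 in old. Its fold change of 0.67 on the log2 scale (95% interval -0.02 to 1.36, edgeR adjusted p = 0.345) leaned on old 3, since old 1 lay between the young sets. At +221 kb (chr15:62037853-62038564) the values were 7.97 and 15.7 CPM in young and 14.2, 16.1 and 11.3 in old, which overlapped. The 3 other tested peaks of the window, of which +142 kb was the strongest, had log2 fold changes of 0.12, -0.19 and 0.13 in order of position.

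The gap window was the sparsest part of the domain, with 3 of its 17 peaks tested. Its strongest peak, at +302 kb (chr15:62118285-62119261), lies near the Pvt1 end. Its young values were 9.96 and 6.73 CPM and its old values 11.5, 19.3 and 24.6 CPM. All 3 old sets were above both young sets, although old 1 was closer to young 1 than to the other old sets. Young sets averaged 8.35 ± 2.28 CPM (SD, n = 2) and old sets 18.5 ± 6.55 (SD, n = 3). The fitted log2 fold change was 1.14, standard error 0.38 (95% interval 0.38 to 1.90). The peak did not pass the genome-wide threshold (edgeR p = 0.00388, adjusted p = 0.0862). It passed with each cell counted at most once per peak (edgeR adjusted p = 0.0197), without the shallowest and deepest cells (0.0314) and without old 1 (0.0262), settings in which 1.54%, 1.54% and 1.53% of all tested peaks were called higher in old. Over all alternatives its adjusted p ran from 0.0197 to 0.568. In thinned cells the share with a count overlapped between the ages, at 2.26% and 1.37% for young and 1.35%, 3.00% and 2.94% for old sets. The tested peaks at +407 and +1138 kb had 5.28 and 4.02 CPM over the 5 sets and log2 fold changes of 0.01 and 0.08.

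**Figure D3:**
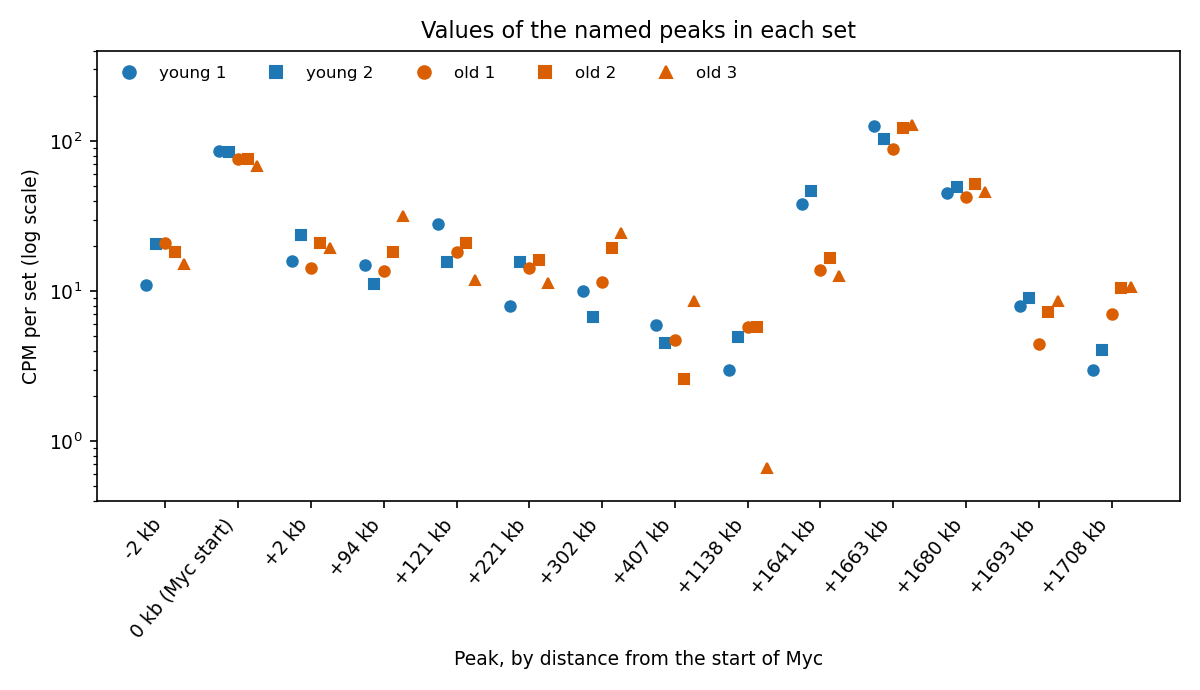
CPM (log scale) of the 14 peaks described singly, in each set, ordered by distance from the start of Myc; blue marks are young sets and orange marks old sets. At +1641 kb the young sets lie at 37.9 and 46.2 and the old sets at or below 16.7, while at +1663 and +1680 kb the marks of the ages mix.

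The enhancer cluster window held the strongest peak of the domain, at +1663 kb (chr15:63479281-63480589), a 1308 bp element. The young sets reached 126 and 103 CPM and the old sets 88.4, 122 and 128 CPM. The lowest and the highest value were both in old sets. Young sets averaged 114 ± 16.1 CPM (SD, n = 2), old sets 113 ± 21.5 (SD, n = 3), and the log2 fold change of -0.02 had a 95% interval from -0.42 to 0.39 (edgeR adjusted p = 0.984). It ranked 195 by CPM among all 115295 peaks, above the peak over the start of Myc, and 45.3% of all cells had a count there. Thinned cells had a count there in 19.8% and 12.3% of cases for young and 15.8%, 18.0% and 17.6% for old sets. The next strongest element, at +1680 kb (chr15:63496566-63497469), had 44.8 and 49.4 CPM in young and 42.5, 52.1 and 45.8 in old. Its log2 fold change was -0.03, within an interval from -0.47 to 0.41 (edgeR adjusted p = 0.971). For these 2 elements the intervals exclude a change of 1 log2 unit in either direction.

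The called peak lies on the Myc side of the strongest one, at +1641 kb (chr15:63458367-63458596), and is 229 bp wide. Raw counts there were 38 and 103 for the young sets, against 53, 32 and 19 for the old sets. Scaled for depth, the young sets stood at 37.9 and 46.2 CPM, the old sets at 13.9, 16.7 and 12.6 CPM. Both young sets were more than 2-fold above the highest old set. Young sets averaged 42.0 ± 5.91 CPM (SD, n = 2) and old sets 14.4 ± 2.07 (SD, n = 3). The fitted log2 fold change was -1.56, standard error 0.26 (95% interval -2.08 to -1.05, edgeR adjusted p = 3.94e-05). The same counts can be set against the stronger peaks of the domain, which gives a scale free of the depth of a set but no further support for the difference. As a percentage of the counts at +1663 kb, those at +1641 kb came to 30.2% and 45.0% for young and 15.7%, 13.6% and 9.84% for old sets. Against the peak over the start of Myc they came to 44.2% and 54.5% for young and 18.2%, 22.1% and 18.6% for old sets.

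More young cells than old cells had a count at +1641 kb. Young sets gave shares of 16.6% and 40.4%, old sets 12.4%, 7.89% and 3.74%. Within each age these shares moved with depth, with the deepest cells in young 2 and old 1. Between the ages they did not, since young 1, with a median of 6133 counts per cell, stood above old 1 with 9623. With cells thinned to 1906 counts the share was 5.65% in young 1 (exact Clopper-Pearson 95% interval 2.74% to 10.1%) and 6.85% in young 2 (3.33% to 12.2%). In the old sets it was 1.80% (0.493% to 4.55%), 3.00% (1.51% to 5.30%) and 1.47% (0.479% to 3.40%). These intervals cover counting error only. Both young sets remained above all old sets after thinning, averaging 6.25% ± 0.848 (SD, n = 2) against 2.09% ± 0.803 (SD, n = 3), while the interval of each young set overlaps that of every old set. On thinned counts the fitted log2 fold change was -1.32 and did not pass the test (edgeR adjusted p = 0.417), with only 5 of the 59 peaks left deep enough to be tested and 1.67% of peaks called over the genome.

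The signal at +1641 kb was spread over cells and was high for so narrow a peak. The 5 cells with the most counts held 9.39% of its counts, and the highest count in a cell was 5. Cells with 3 or more counts numbered 0 in young 1, 9 in young 2, and 4, 1 and 2 in the old sets. A cell with any count held 1.42 on average, against a median of 1.12 over tested peaks under 300 bp and of 1.45 over those peaks under 300 bp called higher in young. Tested peaks under 300 bp were called higher in young more often than tested peaks in general, 220 of 3358 or 6.55% against 1.78%, and the part of width in the call at +1641 kb was not tested. Per kb of width the peak led the domain in the young sets only, at 165 and 202 CPM per kb, against 96.0 and 78.6 at +1663 kb. In the old sets, at 60.7, 72.8 and 55.1 CPM per kb, it lay below the 67.6, 93.6 and 98.0 of +1663 kb. Its mean over the 5 sets, 111 CPM per kb (SD 67.7), therefore mixes unlike ages. In the order of these means the next were +1663 kb at 86.7 (SD 13.2), -2 kb at 61.9, +1680 kb at 52.0, +2 kb at 50.9 and the start of Myc at 49.7 CPM per kb. The set ranges of each neighbouring pair in this order overlapped. The step from the start of Myc to the next element, +1667 kb at 28.4 CPM per kb, was the first without overlap.

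**Figure D4:**
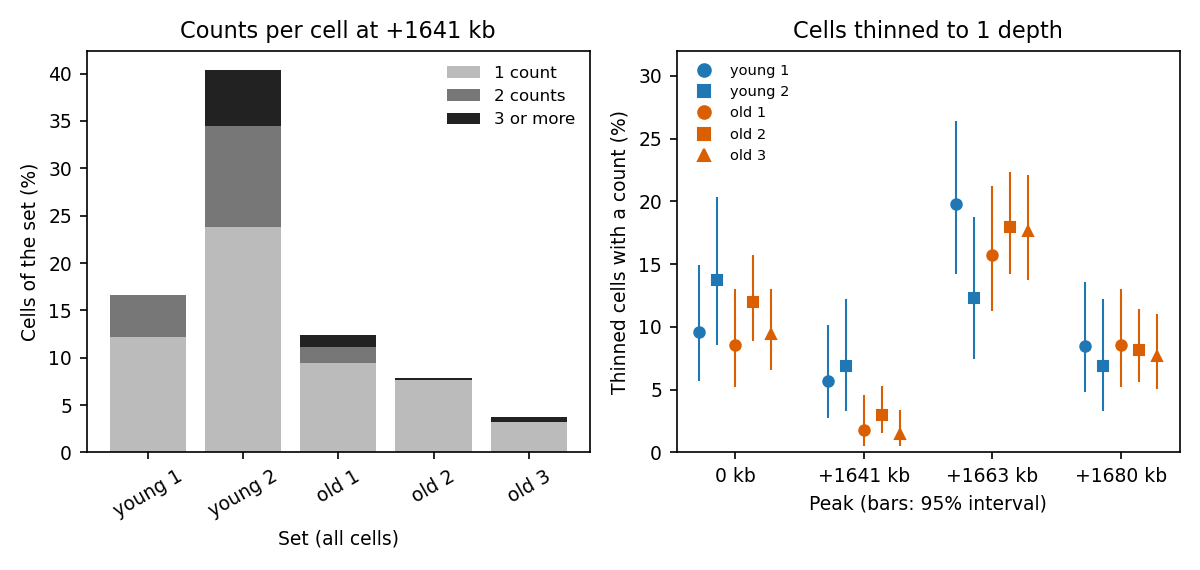
Left, share of all cells of each set with 1, 2, and 3 or more counts at +1641 kb, in percent. Right, share of cells with a count at 4 peaks after thinning each cell to the same depth, in percent, with exact 95% binomial intervals as bars; at +1641 kb the young sets stand at 5.65% and 6.85% and the old sets between 1.47% and 3.00%.

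Of the 9 other tested peaks in the enhancer cluster window, none was called. The one with the smallest p was at +1708 kb (chr15:63524410-63525359). Young values were 2.99 and 4.04 CPM and old values 7.08, 10.4 and 10.6 CPM, so all old sets were above both young sets. Raw counts were 3 and 9 for young and 27, 20 and 16 for old sets. Only the old sets reached the count filter, so the peak was tested because they were high. The separation and the fold change are therefore partly selected and lend no support to a difference. The log2 fold change, 1.28 with an SE of 0.48 (95% interval 0.31 to 2.25), rested on 75 counts in all and did not pass the test (edgeR p = 0.0106, adjusted p = 0.151, and no lower than 0.0938 under the 11 alternatives that gave a value). At +1693 kb (chr15:63510122-63510860) young sets had 7.97 and 8.97 CPM and old sets 4.46, 7.29 and 8.63, with a log2 fold change of -0.44 (edgeR adjusted p = 0.687) that was -0.089 without old 1. The other 7, at +1617, +1626, +1632, +1667, +1673, +1737 and +1755 kb, had log2 fold changes from -0.27 to 0.51, and the ages overlapped at each.

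Summed counts show how the windows shared the signal in each set, and since the peaks were picked by place with earlier results known, these sums carry no test. The enhancer cluster window took 0.0259% and 0.0234% of all counts for young and 0.0216%, 0.0249% and 0.0247% for old sets. Young sets averaged 0.0247% ± 0.00172 (SD, n = 2) and old sets 0.0237% ± 0.00187 (SD, n = 3). The cluster as a whole thus did not separate the ages. Its log2 ratio of old to young was -0.05, and 0.09 without the called peak. The Myc window took 0.0101% and 0.0115% in young and 0.0103%, 0.0107% and 0.00963% in old, which overlapped as well.

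As shares of raw set totals, the Pvt1 and gap windows were higher in every old set than in either young set. These totals leave out the composition factors of the CPM. With totals in place of those factors, the median log2 fold change over all tested peaks went from -0.0089 to 0.089. The Pvt1 window took 0.00905% and 0.00776% in young and 0.00923%, 0.00979% and 0.0112% in old, a log2 ratio of 0.26. Summed as CPM, its ages overlap, with old 1 below young 1, while those of the gap window stay apart. The gap window took 0.00431% and 0.00324% in young and 0.00497%, 0.00565% and 0.00719% in old, averaging 0.00378% ± 0.000755 (SD, n = 2) and 0.00594% ± 0.00114 (SD, n = 3), a log2 ratio of 0.65. Without its strongest peak, at +302 kb, the gap ratio was 0.48 and the ages still did not overlap. In thinned cells the ratios were 0.40 for Pvt1 and 0.46 for the gap and the ages overlapped in both. The gap consists mostly of peaks too weak to test, and its 14 untested peaks had a log2 ratio of 0.59. Their shares were 0.00267% and 0.00185% for young and 0.00297%, 0.00315% and 0.00408% for old sets. Untested peaks moved the same way over the genome, by less. All 57128 untested peaks together took 9.89% and 10.4% of counts for young and 12.0%, 10.8% and 11.2% for old sets. That is a log2 ratio of 0.16, and its part in the gap difference was not tested.

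**Figure D5:**
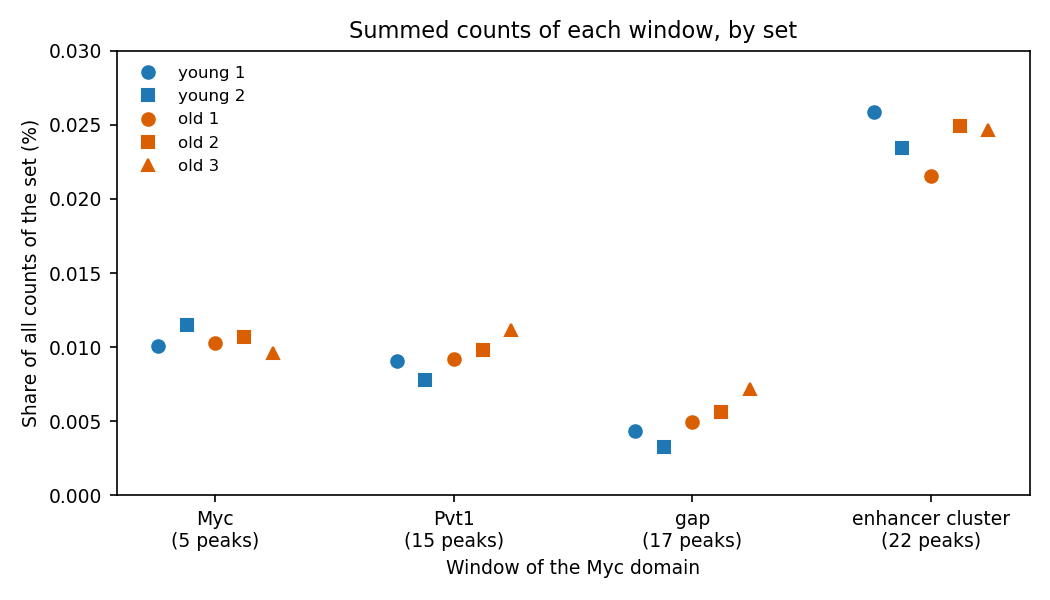
Share of all counts of a set, in percent and without composition factors, that fell in the peaks of each window; each mark is a set, blue young and orange old. Old sets lie above young sets in the Pvt1 and gap windows, and the ages mix in the Myc and enhancer cluster windows.

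Within single cells the domain was seen sparsely. On average a young cell had a count in 2.44 or 4.89 of the 59 peaks, by set, and an old cell in 4.36, 2.25 or 1.88. These means follow the depth of the sets. Thinned to 1 depth they were 0.847 and 0.774 in young and 0.829, 0.905 and 0.888 in old. The cell with the most had 20 peaks, in old 1.

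The peak over the start of Myc and the strongest enhancer element both had a count in 13.3% and 39.1% of young cells, by set, and in 33.3%, 10.3% and 10.2% of old cells. The product of the separate shares was 12.9% and 33.3% in young and 23.9%, 9.53% and 7.35% in old. The joint share was above the product in each set. After thinning the joint share was 3.39% and 0.685% in young and 1.35%, 1.36% and 2.35% in old, and the products were 1.90%, 1.69%, 1.35%, 2.16% and 1.66%. The joint share was above the product in 3 sets and below it in 2, with hardly any difference in old 1. Phi, a correlation between having a count at 2 peaks, was taken over 1252 thinned cells and centred within each set. With the start of Myc it was highest at +142 kb (phi 0.050), +1680 kb (0.043) and -2 kb (0.039). Phi is not the number of shared cells, which was largest at +1663 kb, with 23 (phi 0.0043). It was 15 at +1680 kb, 6 at -2 kb and 5 at +142 kb. The lowest phi was at the called peak, +1641 kb (-0.052), with 1 thinned cell that had a count at both. The 1st and 99th percentiles over all peaks tested were -0.052 and 0.076, so the +1641 kb value lay at the 1st percentile and the 3 highest lay inside the range. All are weak values in sparse counts, and cells of a set share depth and library.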

How the data were processed

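Single-cell ATAC-seq was deposited as 1 table of raw counts per peak and cell, in which each cell is a sample, and the authors did not normalize these counts, as the whole-number values show. Per the submitters' processing notes the tools were Bowtie2, SAMtools, Picard, Trim Galore and FastQC, with no version given, and the build was mm9. Not given in the sources used here are the peak caller, the pooling of cells for it, any shift of cut sites, the kind of count (reads or fragments) and cell filters. Whether duplicate reads or pooled calling changed which narrow peaks exist, or how many counts they hold, was not tested. The table does not state if its starts count from 0 or from 1.

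Cells were assigned to age and set by their titles, and every value column was matched to a set. Members are the peaks that overlap the stated interval, and each belongs to the window that holds its centre. Members, windows and lists were chosen with earlier results of these data known. Counts were summed per set and fitted over all peaks with edgeR 4.0.16 in R 4.3.3 (TMM factors, filterByExpr at minimum count 10, robust quasi-likelihood test, Benjamini-Hochberg adjustment over the genome, threshold 0.05). Standard errors divide each log2 fold change by the root of its F statistic, and intervals are 95%. The edgeR step was also run on simulated counts with the same dispersion for every peak. These are simpler than the real sets, so this run checks the code and not the calls. Peaks described singly are the one over the start of Myc, the 3 tested peaks with the highest mean CPM in each window, every called peak and the 3 with the smallest p in each direction. Cells were thinned to 1906 counts, the 10th percentile, and 4 and 5 young cells and 84, 13 and 34 old cells, by set, were too shallow to be kept. Alternatives concerned the test (DESeq2 1.42.0), scaling, count filter, binarized cells, thinning and a cell filter (2000 counts to the 99th percentile). Others were the threshold, set number as a block (without old 3), window ends and each set left out. Sets that share a number were not treated as pairs, since no label says so.

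Peaks were not assigned to exons or introns, because the gene table at hand belongs to another assembly (GRCm38.p6). No sequence is shown, as no mm9 sequence was used here.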

Additional observations from a re-analysis of the deposited data

How the results depend on the processing

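The call at +1641 kb held in the direction lower in old under all 13 alternatives, with log2 fold changes from -1.67 to -1.32, and passed in all but the thinned cells. Of the 25 peaks tested in the main analysis 1 was called, and of the 5 deep enough to be tested with thinned cells 0 were called. Without old 2 it was 1 of 24, and without old 3 it was 1 of 27. The count was 2 of 23 with binarized cells, 2 of 26 without the shallowest and deepest cells and 2 of 21 without old 1. The second call was +302 kb, higher in old, with log2 fold changes of 1.29, 1.34 and 1.49 there. The fit with the set number as a replicate block left out old 3, whose number no young set has. In it, 1 was called (+1641 kb, -1.42, edgeR adjusted p = 0.00221). The deviations of same-numbered sets correlated at -0.0758 and -0.000706, values that are not independent with 2 young sets, and no label pairs the sets. Over the genome 3.17% of tested peaks were called in the main analysis (1844), 1.67% with thinned cells (233), 0.803% with DESeq2 (423) and 1.84% with the block (1081). Binarized cells gave 3.03% (1662) and the cell filter 3.44% (1976). Without old 1, old 2 and old 3 the shares were 2.72% (1354), 1.96% (1075) and 1.32% (776).

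Fold changes near 0 changed sign without passing the test. The peak at +1663 kb went to 0.081 with library totals, 0.0011 without a count filter, 0.073 with a minimum count of 30, 0.19 with binarized cells, 0.13 with thinned cells and 0.0080 without the shallowest and deepest cells. At +1680 kb the values were 0.068 with library totals, 0.056 with the minimum count of 30, 0.037 with binarized cells, 0.0068 with thinned cells and 0.037 with the replicate block, and +407 kb had -0.50 with that block. With a set left out, ranges crossed 0 at -2 kb (-0.14 to 0.79), +2 kb (-0.43 to 0.17), +121 kb (-0.65 to 0.16), +221 kb (-0.16 to 0.84), +407 kb (-0.33 to 0.30), +1138 kb (-0.13 to 0.46), +1663 kb (-0.14 to 0.18) and +1680 kb (-0.092 to 0.082). With library totals the median over all tested peaks moved too, from -0.0089 to 0.089. The cause of the sign changes was not tested. Weak peaks that fell below the count filter of an alternative have no value there.

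Leaving out a set moved the log2 ratio of the gap window between 0.46 and 0.87, of the Pvt1 window between 0.15 and 0.37, of the Myc window between -0.17 and 0.02 and of the enhancer cluster between -0.12 and 0.02. The enhancer cluster ratio of -0.05 became 0.093 without the called peak, and the gap ratio 0.48 without its strongest peak, both chosen after seeing the data. A wider enhancer window held no further peak. Depth limits the 34 untested peaks, and with 2 young sets a small change at a weak peak was not detectable.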
